A study of Mus musculus with 5 samples.

Results

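Cluster 3 is the largest of 13 numbered classes into which the study's authors sorted the genomic regions bound by Stat3 or the glucocorticoid receptor (GR) in AtT-20 cells. Its members were taken as every entry of the deposited region list that carries the cluster number 3. They number 2465 of 5670 regions, 43.5% of the list, and the other 12 clusters hold the remaining 3205. The next largest are cluster 2 with 658 regions, cluster 6 with 629 and cluster 7 with 625. Which factor and which treatment cluster 3 stands for is not given in the sources used here, so the class is called by its number throughout.

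AtT-20 is an established mouse pituitary tumour line, used as a model of corticotrophs, the pituitary cells that make ACTH from the Pomc precursor. Binding was mapped by chromatin immunoprecipitation and sequencing (ChIP-seq) after 20 min of treatment, with 1 library in each of 5 groups. In the Stat3 libraries cells had received either leukemia inhibitory factor (LIF) or dexamethasone (Dex, a synthetic glucocorticoid) together with LIF, and antibodies to Stat3 and to phosphorylated Stat3 were combined. In the GR libraries cells had received Dex or Dex with LIF, and the fifth library was a rabbit IgG control drawn from cells of all 3 treatments. Every group shares the same cell line and medium, no untreated group is among the samples, and each ChIP library was made from 5 ChIPs combined beforehand, so the line and the pooling limit what any region can stand for.

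Stat3 is a latent transcription factor. Cytokines of the LIF family act through the receptor chain gp130, whose associated JAK kinases phosphorylate Stat3, and the phosphorylated dimer enters the nucleus and binds a short DNA palindrome. GR waits in the cytoplasm until a glucocorticoid binds it, then enters the nucleus and either binds its own palindrome or is held on DNA through another bound factor. Both pathways meet in corticotrophs, where LIF raises Pomc transcription and glucocorticoids lower it. The series asks how each factor is recruited, directly to DNA or through the other.

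The region list gives, for each region, a chromosome, a single position in the mm9 build, a region number and the cluster number. It holds no peak height, enrichment or read depth, so the strength of binding in cluster 3, the IgG background and the difference between treatments were not measurable here. What could be measured is where cluster 3 regions lie, how closely they lie to each other, and which other clusters lie beside them. Neither an annotation nor a sequence of mm9 was used here, so no gene, exon, intron or motif is named for any position. Each share has an exact 95% interval (Clopper-Pearson), and each difference of shares has Newcombe's 95% interval. Both cover counting error only, take each region as independent although close regions are not, and are therefore too narrow. There are no replicates, and no test was made.

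The share of cluster 3 differed little between chromosomes. It was lowest on chromosome 12, with 103 of 268 regions (38.4%, interval 32.6% to 44.5%), and highest on chromosome 17, with 79 of 158 (50%, 41.95% to 58.0%). The median over the 20 chromosomes was 43.6%. The interval of each of the 20 chromosomes held the 43.5% of the whole list, so at these counts no chromosome could be set apart from the list by its share of cluster 3. The X chromosome, with 32 cluster 3 regions of 73 (43.8%, 32.2% to 55.9%), was poor in regions of cluster 3 and of the other clusters alike.

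**Figure D1:**
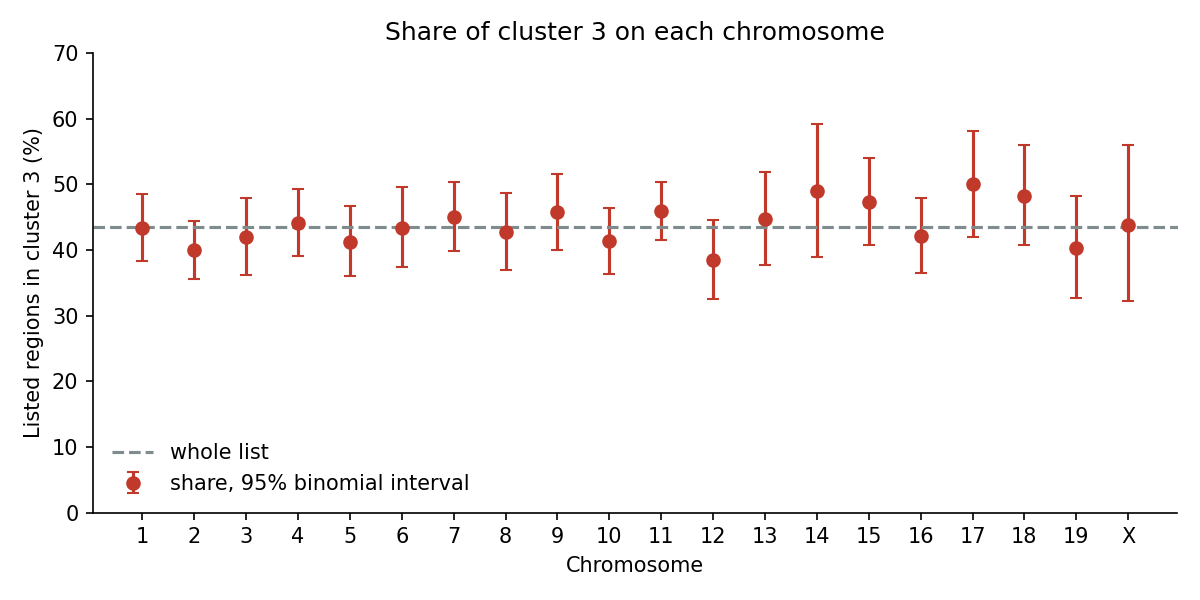
Share of the listed regions of each chromosome that belong to cluster 3 (vertical axis, %), by chromosome (horizontal axis). Points are shares, bars their exact 95% binomial intervals, and the dashed line is the 43.5% of the whole list, which lies within all 20 intervals.

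In density, cluster 3 ranged from 0.201 regions per Mb on the X chromosome to 1.98 per Mb on chromosome 11, where the length of a chromosome is the span between its first and last listed region. Chromosome 11 held 235 cluster 3 regions, 9.53% of the class, beside 8.64% of the regions of all other clusters. Chromosome 2 held 197, 7.99% of cluster 3 beside 9.24% of the other clusters. Chromosome 17 had the same density of both, 0.864 per Mb. Over all chromosomes the density was 0.973 per Mb for cluster 3 and 1.27 per Mb for the other clusters together.

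On a finer scale, the places rich in cluster 3 were mostly also rich in other clusters. The chromosomes were divided into 530 bins of 5 Mb, and a bin held a median of 3 cluster 3 regions. Across bins, the counts of cluster 3 regions and of other regions had a Pearson r of 0.748 and a Spearman rho of 0.746. These values are a description only. Both counts of a bin share its mappable sequence and its copy number in the cell line, whose bearing on the values was not tested. Cluster 3 was absent from 79 bins, of which 30 held no region at all and 49 held other clusters only. In 34 bins cluster 3 was the only class present.

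One bin stood far from the rest. Between 115 and 120 Mb on chromosome 11 there were 51 cluster 3 regions and 29 of other clusters. The next fullest bin, between 165 and 170 Mb on chromosome 2, held 25 of cluster 3 and 42 of other clusters. Without the chromosome 11 bin, r was 0.757. The opposite makeup was seen between 95 and 100 Mb on chromosome 16, with 6 cluster 3 regions and 30 others, and between 170 and 175 Mb on chromosome 2, with 6 and 29.

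**Figure D2:**
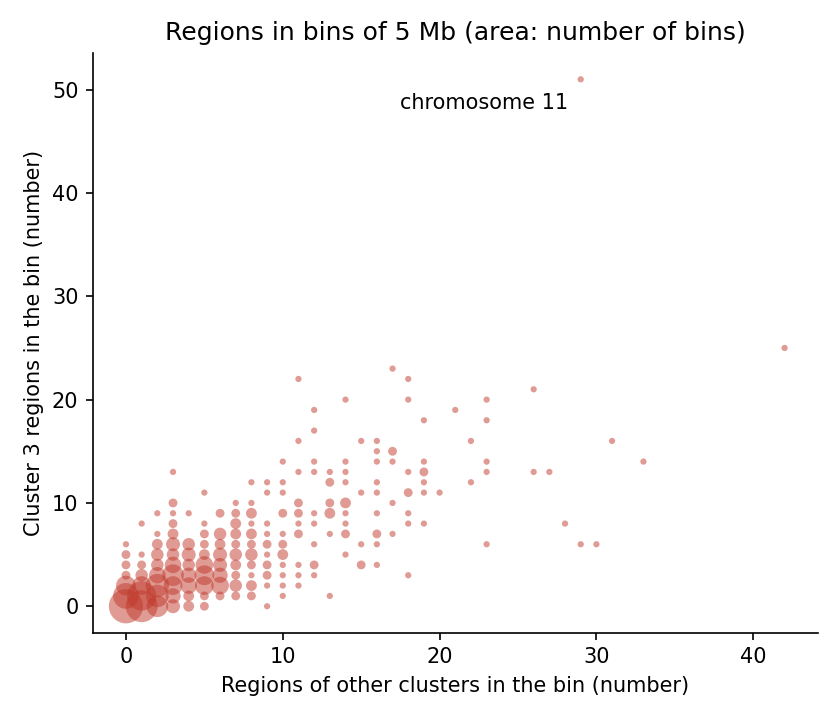
Number of cluster 3 regions (vertical axis) against the number of regions of all other clusters (horizontal axis) in 530 bins of 5 Mb, with the area of a point proportional to the number of bins at that place. The counts rise together, and the bin of chromosome 11 with 51 cluster 3 regions lies apart.

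Most regions of the list lay alone, and so did most of cluster 3. With regions linked at up to 10 kb, 1853 of the 2465 cluster 3 regions (75.2%) had no listed region of any cluster that close, beside 4000 of all 5670 (70.5%). The distance from a cluster 3 region to the nearest region of any cluster had a median of 50.6 kb, with quartiles at 10.2 kb and 159 kb. For the other clusters together the median was 31.4 kb, with quartiles at 4.60 kb and 126 kb. That pooled value joins clusters with short distances, with medians of 12.9 kb in cluster 5, 19.1 kb in cluster 6 and 21.4 kb in cluster 4, and clusters near or above cluster 3. The median was 45.3 kb in cluster 2, 49.96 kb in cluster 7, 51.6 kb in cluster 13 and 74.0 kb in cluster 1. At the far end, 78 cluster 3 regions (3.16%) had no other region within 1 Mb, beside 78 (2.43%) of the other clusters. The most isolated lay on chromosome 3 at position 3353155, with the nearest region, also of cluster 3, 6398 kb away.

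Within 10 kb, 612 cluster 3 regions (24.8%, interval 23.1% to 26.6%) had another listed region, against a background of 29.5% over all regions of the list. The other clusters together had 33.0% (1058 of 3205), and the difference was -8.18 percentage points (interval -10.5 to -5.81). This gap was not shared by all clusters. Against cluster 2, at 26.4%, the difference was -1.62 points (-5.49 to 2.05), and against cluster 7, at 26.7%, it was -1.89 points (-5.86 to 1.86). Cluster 1, at 23.2% (46 of 198), was the only cluster with a lower share than cluster 3, and the difference was 1.60 points (-4.98 to 7.21). These 3 intervals include 0 and leave room for a gap of either sign. Against cluster 4, at 34.3%, it was -9.51 points (-15.0 to -4.31). Among the 6 clusters compared singly, the widest gaps were to cluster 6, at 40.9% (-16.0 points, -20.3 to -11.9), and to cluster 5, at 45.6% (-20.8 points, -26.1 to -15.5). With clusters 5 and 6 left out of the comparison, the other clusters had 28.6% and the difference was -3.78 points (-6.32 to -1.23). Leaving out clusters with high shares narrows the gap by construction. Clusters 4, 12 (39.0%) and 13 (35.3%) stayed in.

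Clusters 4, 5, 6 and 12 lay above cluster 3 at each of the 6 distances, while the order of clusters 2, 3 and 7 varied. Within 0.5 kb the share with another region was 9.64% in cluster 4 and 13.6% in cluster 12 (8 of 59). At that distance 118 cluster 3 regions (4.79%) had another region, with 6.60% over the whole list. It was 3.50% in cluster 2, 5.76% in cluster 7, 10.8% in cluster 6 and 16.4% in cluster 5. Within 1 kb the share was 8.84% in cluster 3 (218 regions) beside 10.8% over the list. Within 50 kb it was 49.7% (1225 regions) beside 54.4% over the list, and within 100 kb 65.1% (1604 regions) beside 68.6%. Within 1000 kb, 96.8% of cluster 3 (2387 regions) and 97.2% of the list had another region, and the difference between cluster 3 and the other clusters, -0.73 points, had an interval of -1.64 to 0.13 that includes 0.

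**Figure D3:**
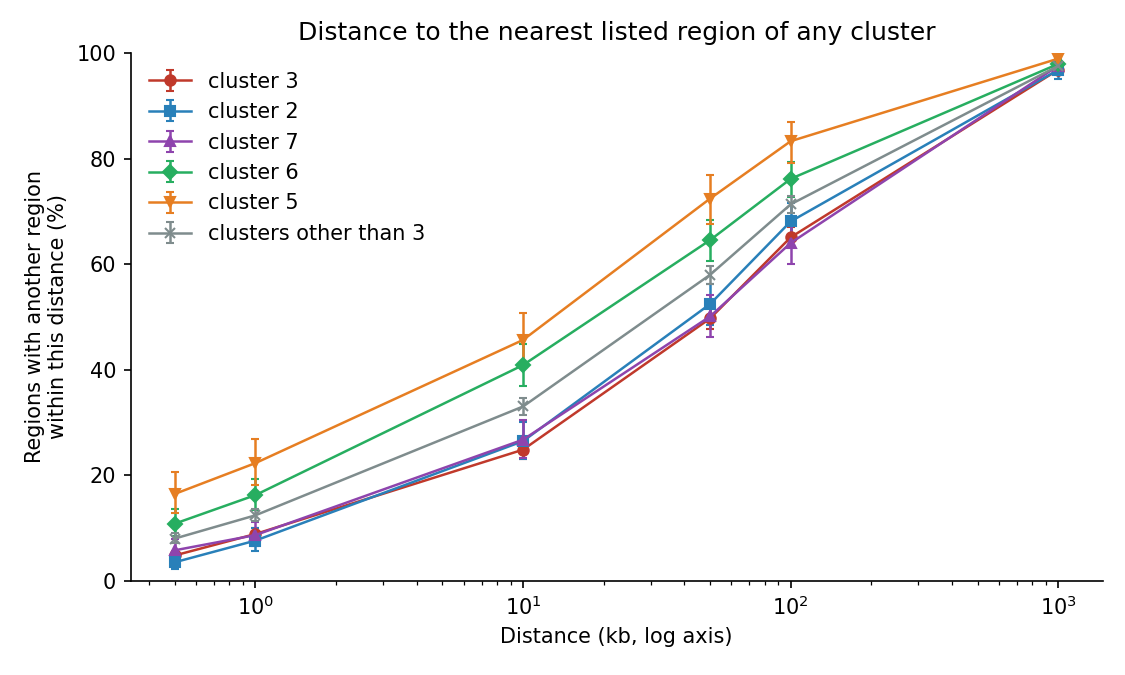
Share of regions with another listed region of any cluster (vertical axis, %) within each of 6 distances (horizontal axis, kb, log scale), for cluster 3, clusters 2, 5, 6 and 7, and all clusters other than 3, with exact 95% binomial intervals. The lines of clusters 3, 2 and 7 lie together, at 24.8%, 26.4% and 26.7% within 10 kb, below clusters 6 and 5 at 40.9% and 45.6%.

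The share of cluster 3 was therefore higher among single regions than among regions with neighbours. Of the 4000 regions with none within 10 kb, 46.3% were cluster 3 (interval 44.8% to 47.9%). Among the 1094 regions in groups of 2 it was 38.6% (35.7% to 41.5%), and among the 339 in groups of 3 it was 29.5% (24.7% to 34.7%). In the 50 groups of 4 or more, which include those of the crowded stretch of chromosome 11 described below, it was 38.0% (31.8% to 44.5%). The fullest window of that stretch alone supplied 20 of the 90 cluster 3 regions and 23 of the 237 regions in these groups.

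Where cluster 3 regions did have neighbours, these were often of cluster 3 as well. Of the 612 with a region within 10 kb, 357 had one of cluster 3 and 337 had one of another cluster, 82 having both. Counted over the whole of cluster 3, 14.5% had another cluster 3 region within 10 kb, beside a background of 12.6% over the list. Within 0.5 kb this share was 3.00% (74 regions) beside 2.12% over the list, and within 1 kb 5.31% (131 regions) beside 3.97%. Within 50 kb it was 30.7% beside 30.4%, and within 100 kb 43.3% beside 43.5%, so at these distances cluster 3 was near the background. At the short distances other clusters exceeded the list too. Within 0.5 kb, 4.55% of cluster 1 (9 of 198), 3.45% of cluster 9 (1 of 29) and 3.01% of cluster 4 (10 of 332) had a cluster 3 region. Within 1 kb the share was 5.05% in cluster 1 (10 of 198) and 5.43% in cluster 11 (7 of 129). All remaining clusters lay below the list at these 2 distances. Looking only at the single nearest neighbour, it belonged to cluster 3 for 328 of the 612 (53.6%, interval 49.6% to 57.6%). For the 1058 regions of other clusters with a neighbour within 10 kb, the nearest belonged to cluster 3 for 278 (26.3%). The difference was 27.3 points (22.5 to 32.0). Cluster 3 made up 36.6% of all regions with a neighbour. Close regions of one class weigh on the difference: with same-cluster regions within 1 kb merged, it fell to 13.9 points (8.76 to 19.0). This merging removes close pairs of 1 class and keeps mixed ones. The fall therefore follows largely from the rule and does not measure the weight of close regions in general. Nearest neighbours are often mutual, so both members of a close pair are counted. Pairing within a class was not particular to cluster 3. Within 10 kb, cluster 6 formed 51 pairs with itself beside 71 with cluster 3, and cluster 7 formed 31 beside 57. Cluster 5 formed 29 beside 66, clusters 2 and 4 formed 10 each beside 87 and 59, and cluster 1 formed 3 beside 28. Clusters 8 to 13 formed none with themselves. Cluster 3 formed 246 with itself, from 2465 regions against 629, 625 and 377 in clusters 6, 7 and 5.

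The other nearest neighbours of cluster 3 came from all 12 other clusters. Cluster 2 supplied 66 (10.8% of the 612, interval 8.44% to 13.5%) and made up 10.4% of all regions with a neighbour. Clusters 5 and 6 supplied 42 each (6.86%, 4.99% to 9.16%) and made up 10.3% and 15.4% of the regions with a neighbour. Cluster 7 supplied 40 (6.54%, 4.71% to 8.79%), with 10.0% of the regions with a neighbour. Cluster 4 supplied 35 (5.72%, 4.02% to 7.86%) and made up 6.83% of them. These shares are over all 612, of which cluster 3 took 328, so alone they do not show that a cluster lies away from cluster 3. Per 100 of its own regions, cluster 8 formed 19.1 pairs with cluster 3 within 10 kb, from 47 regions only. Cluster 4 formed 17.8 and cluster 5 formed 17.5. Cluster 2 formed 13.2, cluster 6 formed 11.3 and cluster 7 formed 9.12. The nearest cluster 3 partners lay at a median of 1.70 kb and were not the closest. The median was 1.47 kb for cluster 4 and 1.87 kb for cluster 1. It was 1.99 kb for cluster 6, 2.38 kb for cluster 5, 2.93 kb for cluster 2 and 4.47 kb for cluster 7.

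Seen from the other clusters, a cluster 3 region within 10 kb was about as frequent for cluster 5 as for cluster 3 itself. The share was 14.5% in cluster 3 and 12.6% over the list. It was higher only in small clusters, at 17.0% in cluster 8 (8 of 47) and 16.7% in cluster 10 (1 of 6). In cluster 5 it was 14.3% (54 of 377, interval 10.9% to 18.3%) and in cluster 4 it was 13.3% (44 of 332, 9.80% to 17.4%). Cluster 1 had 12.1% (24 of 198, 7.92% to 17.5%). Cluster 2 had 11.2% (74 of 658, 8.93% to 13.9%) and cluster 6 had 10.5% (66 of 629, 8.21% to 13.2%). In cluster 7 it was 8.32% (52 of 625, 6.28% to 10.8%). Cluster 7 resembled cluster 3 in how seldom its regions had a neighbour, yet the interval of its share lay below the 13.1% to 15.9% of cluster 3 itself.

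The makeup of pairs was followed with distance. Each pair of listed regions was placed in a distance range, and 2 shares were taken: how often the partner of a cluster 3 region was itself cluster 3, and how much of all members of such pairs cluster 3 made up. At up to 0.5 kb there were 193 pairs, 38 of them within cluster 3 and 47 joining it with another cluster. Partners were cluster 3 in 61.8% of cases there, while cluster 3 made up 31.9% of all members. At 1 to 2 kb the values were 58.3% and 38.7%, and at 5 to 10 kb 54.7% and 39.7%. The 2 shares lay closer at 2 to 5 kb, with 45.0% and 33.2%, and at 10 to 20 kb, with 42.9% and 37.3%. At 100 to 200 kb they were 43.9% and 43.3%.

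The stretch of chromosome 11 with the most regions carried part of this. Without the regions of that 100 kb window, the values at up to 0.5 kb were 57.7% and 29.7%, and at 5 to 10 kb 47.5% and 35.6%. At 20 to 50 kb the pair of shares went from 49.2% and 41.4% with the window to 40.9% and 37.3% without it. Over all pairs within 10 kb it went from 53.9% and 36.8% to 49.8% and 34.4%.

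**Figure D4:**
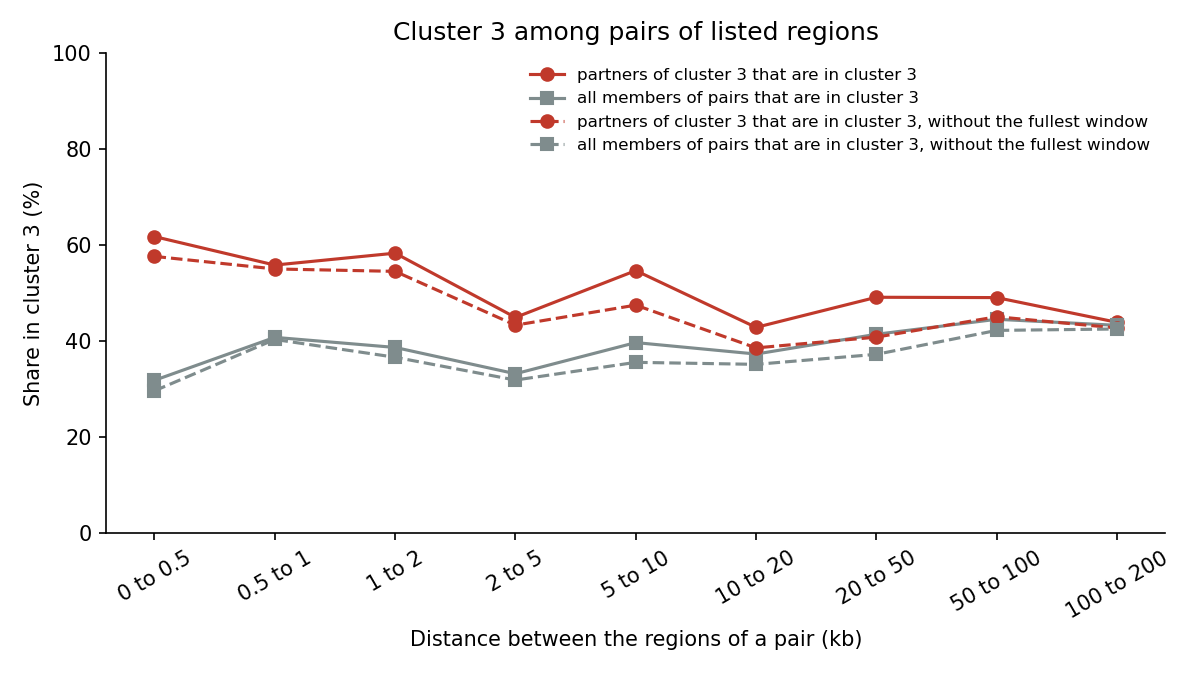
Share in cluster 3 (vertical axis, %) of the partners of cluster 3 regions (circles) and of all members of pairs (squares), by the distance between the regions of a pair (horizontal axis, kb), with all regions (solid) and without the fullest 100 kb window (dashed). The 2 shares are 61.8% and 31.9% at up to 0.5 kb and 43.9% and 43.3% at 100 to 200 kb.

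Cluster 3 formed 246 pairs with itself within 10 kb, at a median distance of 3.05 kb. Of these, 69 were within 1 kb, 38 within 0.5 kb and 4 under 200 bp. The closest were 170 bp apart, at 89032395 and 89032565 on chromosome 3, at 25259945 and 25260115 on chromosome 7, and at 12873905 and 12874075 on chromosome 8. A pair 180 bp apart lay at 36360445 and 36360625 on chromosome 1. Positions in the list are multiples of 5 bp, and at such distances the list alone does not tell 2 binding sites from 1 broad peak called in separate libraries.

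Of the 710 groups of 2 or more regions linked at 10 kb, 412 contained cluster 3. In 122 of them all members were cluster 3, 111 being groups of 2, 9 of 3 and 2 of 4. The groups of 4 lay between 20401795 and 20417305 on chromosome 7 and between 124283650 and 124287390 on chromosome 8. The other 290 groups mixed cluster 3 with other clusters and held 355 of its regions, beside 257 in groups of cluster 3 alone. Cluster 3 made up only 36.6% of all regions with a neighbour, so the larger count in mixed groups is not by itself a trait of cluster 3. Of the 547 groups of 2, 111 were all cluster 3, 200 were mixed and 236 held none of it. Cluster 3 made up 38.6% of the regions in these groups of 2.

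Windows of 100 kb crowded with cluster 3 were rare, and 1 of them stood apart. The fullest lay on chromosome 11 between 117739795 and 117837540 and held 20 cluster 3 regions among 23 (87.0%, interval 66.4% to 97.2%). Its cluster 3 regions fell into sets rather than an even row. From the first position, 2 lay in the first 1.39 kb and 2 more at 10.8 and 12.1 kb. After an empty 32.8 kb, 7 followed between 44.9 and 61.3 kb, among them close pairs at 45.1, 52.7 and 56.0 kb. The last 9 lay between 79.8 and 97.7 kb, with 3 of them at 90.3, 90.8 and 91.0 kb, positions 117830115, 117830565 and 117830785. The 3 regions of other clusters, of clusters 4, 2 and 13, lay at 3.57, 58.1 and 73.9 kb. The median gap between its cluster 3 regions was 1.73 kb, and it held 43 of the 246 pairs of cluster 3 within 10 kb (17.5%).

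The second window held 6 cluster 3 regions and no other, on chromosome 8 between 124189475 and 124287390, 4 of them being the group of 4 at its end. Windows with 5 cluster 3 regions followed on chromosome 1, between 36312185 and 36365620 with 1 region of cluster 7 among them, on chromosome 7, between 29164325 and 29222085, and over 59.0 kb of chromosome 18. Counted without overlap, 7 windows held 5 cluster 3 regions, 20 held 4, 86 held 3 and 311 held 2, while 1425 held 1, and 19 cluster 3 regions fell in no counted window. No counted window held between 7 and 19, so the stretch of chromosome 11 has no counterpart of intermediate size.

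**Figure D5:**
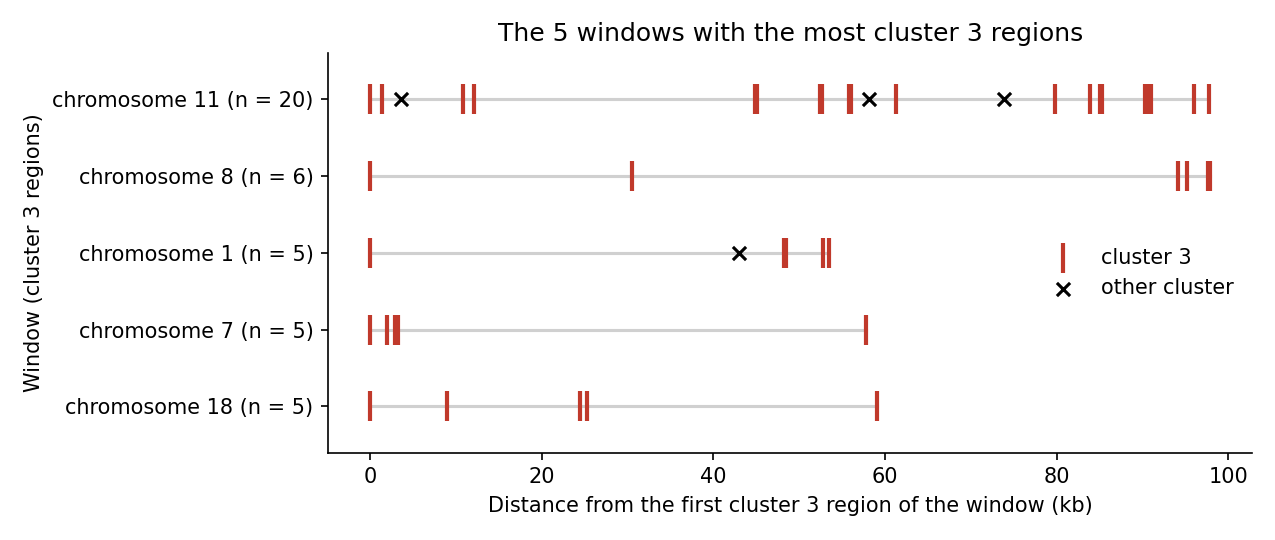
Cluster 3 regions (red bars) and regions of other clusters (black crosses) in the 5 windows of 100 kb with the most cluster 3 regions, by distance from the first cluster 3 region (horizontal axis, kb). The window of chromosome 11 holds 20 cluster 3 regions and 3 others, and the following windows hold 6, 5, 5 and 5. Of the 7 windows with 5 cluster 3 regions, the shortest are shown.

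Followed along each chromosome irrespective of distance, the next listed region after one of cluster 3 was cluster 3 in 1141 of 2451 cases (46.6%, interval 44.6% to 48.6%). After a region of another cluster it was cluster 3 in 1317 of 3199 cases (41.2%, 39.5% to 42.9%), a difference of 5.38 points (2.77 to 7.99). Cluster 3 thus came in 1324 unbroken runs, of which 714 were a single region, 339 were of 2, 149 of 3, 115 of 4 to 8 and 7 of 10 or more. The longest, of 11 regions, was reached on chromosome 11 over 49.7 kb, from 117819630 to 117869305, and on chromosome 9 over 5674 kb, from 34934865 to 40608845. These have very different densities, 221 and 1.94 cluster 3 regions per Mb. A run of 10 on chromosome 3, from 88551090 to 89143465, had 16.9 per Mb, and another on chromosome 12, from 43062100 to 51622425, had 1.17 per Mb. A long run therefore need not be a crowded place. The run on chromosome 9 spans 2 region numbers without a listed region, which may hide a break, and the run on chromosome 11 spans none.

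The converse, crowded places without cluster 3, also occurred. Between 173433985 and 174599555 on chromosome 2, neighbouring cluster 3 regions enclosed 19 regions of other clusters in 1.17 Mb. On chromosome 10, between 59366145 and 59852215, they enclosed 18 in 0.486 Mb. On chromosome 12, between 103691915 and 103968705, they enclosed 12 in 0.277 Mb. The median distance between consecutive cluster 3 regions was 328 kb, and 1141 of the 2445 such intervals enclosed no other region. The longest, 25.8 Mb on the X chromosome and 24.0 Mb on chromosome 14, enclosed 2 and 6 regions of other clusters, so these stretches were poor in all classes.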

How the data were processed

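The labels of the 4 ChIP libraries name 1 deposited list, which is a list of peaks by cluster, per the file header. The authors' cluster numbers are classes and not measured quantities. Per the submitters' processing notes, Bowtie, MACS 1.3.7.1 and build mm9 were used; the sources used here state no thresholds, use of IgG or clustering method. Reads were of 36 bp, per the labels' protocols. Of the region numbers up to 5874, 204 (3.47%) have no entry here and were not analysed. Whether positions count from 0 or 1 is not given.

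Distances, pairs, groups, windows and runs were computed with Python 3.11.15, numpy 2.4.6, pandas 2.3.3 and scipy 1.17.1 and tested on simulated data. Distances are between positions, with a main limit of 10 kb. Windows of 100 kb were taken greedily without overlap, and among windows with equal counts the shortest came first. Members, lists and comparisons were chosen with earlier results of these data known. The planned analyses of start sites, motifs and gene lists were not run, since no genome or annotation of mm9 was used here, and the rule for named genes therefore named none. Regions named by position follow a rule (fullest windows, closest pairs, longest runs); isolated regions, bins, groups of 4 and intervals rich in other clusters were chosen after their values were seen.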

Additional observations from a re-analysis of the deposited data

How the results depend on the processing

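Merging same-cluster regions within 500 or 1000 bp left 2427 or 2398 cluster 3 regions. Within 1, 50 and 100 kb, the share of cluster 3 with a neighbour was 8.84%, 49.7% and 65.1%, after 24.8% within 10 kb, and the nearest neighbour was cluster 3 more often from cluster 3 than from other clusters by 37.1, 17.5 and 14.8 points, after 27.3. The difference in having a neighbour, cluster 3 minus other clusters, was -3.54 points within 1 kb, -8.28 within 50 kb and -6.26 within 100 kb. With same-cluster regions within 1 kb merged, an alternative chosen after seeing the data, these 3 values within 10 kb were 21.1%, 13.9 points and -10.5 points, since merging removes close pairs of 1 class. Leaving out the fullest 100 kb window gave 24.2%, 26.1 points and -8.74 points. None of these changed sign. With groups of regions within 10 kb counted once, the share of cluster 3 ran from 41.8% to 53.5% over chromosomes, and all 20 stayed inside their intervals. The alternatives on start sites, motifs, gene distances and a shift of 1 bp were not run. Sequencing depth, which bears on how many regions are found, is unknown here.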

Other observations

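The order in which cluster 3 regions stand in the list is not explained in the sources used here. Divided into 10 equal parts in that order, the share with a neighbour within 10 kb ran from 20.3% in the eighth part to 32.9% in the last, without a steady course between them. Beside the 204 region numbers that have no entry stood 336 listed regions, and 147 of these (43.75%) were cluster 3, a share close to the 43.5% of the list.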
